A study of Mus musculus with 6 samples.

Results

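The genes described here are Calm4, Calml3, Calml4, Krtdap, Sbsn and Lypd3, 6 genes tied to early epidermal differentiation and chosen by name. The choice was made with earlier results of these data known. Their 8 probe sets are those that the platform annotation assigns to 1 of these genes alone, and the 6 genes are set among 18193 genes of the whole array. Sbsn had 3 probe sets and each other gene had 1. Skin cells of 14-day-old mice of a mixed C57B6 and CD1 background had been purified by fluorescence-activated sorting (FACS) into basal epidermal cells, hair follicle matrix cells and outer root sheath (ORS) cells. Each population was taken from mice labelled Ezh1/2 WT and from mice labelled Ezh1/2 2KO, which gave 6 groups with 1 array each. RNA of the 2KO basal epidermal cells came from female mice and that of the other 5 groups from both sexes, so that sex and genotype cannot be told apart in basal epidermis. The sources used here do not say which Cre drove the deletion, in which cells it acted, or how many mice gave each sample.

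Keratinocytes that leave the basal layer stop dividing, take up the suprabasal keratins Krt1 and Krt10, and respond to rising calcium. Calm4, Calml3 and Calml4 encode relatives of calmodulin, the EF-hand calcium sensor. Krtdap and Sbsn encode secreted proteins of suprabasal layers, and Lypd3 encodes a protein of the Ly6/uPAR family that is held on the cell surface by a lipid anchor. Ezh1 and Ezh2 are the methyltransferases of Polycomb repressive complex 2, which places repressive marks on histone H3.

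Values are MAS5 signals, a linear brightness per probe set that the authors' processing had scaled to one trimmed mean of 500.0 on every array. The middle signal of all non-control probe sets, 83.2, served as a floor, and a gene was called higher or lower where 2 arrays differed at least 2-fold after lower signals were raised to it. A gene below the floor on both arrays was not measured in that pair. With 1 array per group no value has a replicate check, no error can be given and no difference was tested. The brightest Ezh1 and Ezh2 probe sets were lower on every 2KO array than on the WT array of the same population. The smallest difference was 2.07-fold for Ezh2 in matrix, and Ezh2 in basal epidermis was 5.93-fold lower. Ezh1 was below the floor in 2KO basal epidermis and 2KO ORS, and so was at least 4.82-fold and at least 4.57-fold lower there.

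The labels of the sorted cells were compared with marker genes. Lef1, a transcription factor of hair matrix, read 5115 in WT matrix against 126 and 159 in WT basal epidermis and ORS, and the stem cell gene Lgr5 read 2450 in WT ORS against 185 and 558 in WT basal epidermis and matrix. Krt1 and Krt10 read 16394 and 28000 in WT basal epidermis, against 462 and 2309 in matrix and 732 and 3904 in ORS. The cells sorted as basal epidermis therefore carried abundant RNA of suprabasal keratins beside that of the basal keratin Krt14 (26576). In bulk RNA of this kind, fewer cells of a type and less RNA per cell cannot be told apart.

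Whether the 6 genes mark early differentiation cannot be read from these arrays, since no population was sorted as suprabasal cells. In WT skin, Calm4, Krtdap, Sbsn and Lypd3 were highest in basal epidermis, where Krt1 and Krt10 were highest too. Calml3 was instead lowest there, and Calml4 lay below the floor on all 3 WT arrays. The 7 basal layer markers also had their highest WT sum in basal epidermis (131491, against 104504 in ORS and 27350 in matrix). A high signal in this population therefore does not separate suprabasal from basal expression.

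The secreted proteins Krtdap and Sbsn lie close together on mouse chromosome 7, with only Dmkn between them in RefSeq order among protein-coding genes. Dmkn encodes dermokine, another secreted protein of suprabasal cells. RefSeq promoters (GRCm38.p6) matched 5 of the 6 genes. The 250 bases before the annotated start are shown for Krtdap and Sbsn, which were both higher in 2KO matrix, for Calm4, which differed in opposite directions in matrix and ORS, and for Calml4, which was measured on 2KO arrays only. They lie at chr7:30787655-30787904, chr7:30751221-30751470, chr13:3837507-3837756 and chr9:62857854-62858103, all on the plus strand. Capitals mark matches to the AP-1 heptamer TGANTCA and to the TATA box TATAAA.
Krtdap: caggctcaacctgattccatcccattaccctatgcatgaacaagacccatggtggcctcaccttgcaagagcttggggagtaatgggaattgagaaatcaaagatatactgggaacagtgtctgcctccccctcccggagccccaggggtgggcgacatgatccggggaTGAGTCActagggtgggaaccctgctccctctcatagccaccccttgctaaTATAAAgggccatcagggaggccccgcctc
Sbsn: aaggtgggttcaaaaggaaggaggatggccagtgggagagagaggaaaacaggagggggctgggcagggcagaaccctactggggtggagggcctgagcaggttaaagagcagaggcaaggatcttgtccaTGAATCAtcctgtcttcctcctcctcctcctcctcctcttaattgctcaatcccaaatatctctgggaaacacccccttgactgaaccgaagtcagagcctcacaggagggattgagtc
Calm4: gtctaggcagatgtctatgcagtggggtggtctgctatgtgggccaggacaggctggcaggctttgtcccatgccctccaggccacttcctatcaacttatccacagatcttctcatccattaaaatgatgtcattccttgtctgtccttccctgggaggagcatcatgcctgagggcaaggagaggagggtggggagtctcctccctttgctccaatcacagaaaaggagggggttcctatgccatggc
Calml4: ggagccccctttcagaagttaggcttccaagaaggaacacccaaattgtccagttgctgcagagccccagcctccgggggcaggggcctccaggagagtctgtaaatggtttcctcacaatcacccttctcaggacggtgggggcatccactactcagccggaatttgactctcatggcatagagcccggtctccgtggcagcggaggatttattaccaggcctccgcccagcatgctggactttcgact

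Krtdap held TGAGTCA 81 to 75 bases before its start and TATAAA 30 to 25 bases before it, and Sbsn held TGAATCA 119 to 113 bases before its start. A longer Sbsn window that runs past the start held 2 matches to TGANTCA, so 1 reaches beyond the bases shown. Each of the 3 annotated Dmkn promoters also held a match to TGANTCA, between 91 and 76 bases before its start. Of these windows 2 overlap almost wholly and share the same match, so that 2 of the matches are distinct. No such match was found in the windows of Calm4, Calml4 and Lypd3. Over 32851 promoters of the same length, read on both strands, 6.75% held TGANTCA and 12.4% held TATAAA. Further patterns were searched and are not marked. AACCGGTT, the pattern of grainyhead-like factors (0.116% of promoters), and GCCNNNGGC of AP-2 factors (13.7%) had no match in the windows of the 5 genes. CCNCNCCC of Krüppel-like factors (45.9%) had 2 overlapping matches in Krtdap and 1 in Calm4. These matches are descriptions of sequence and were not tested as sites.

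Krtdap, keratinocyte differentiation-associated protein, had signals of 17132 (WT) and 22604 (2KO) in basal epidermis, 557 and 5182 in matrix, and 2639 and 5457 in ORS. Both basal epidermis arrays were the highest, and WT matrix stood far below the other 5 arrays. Krtdap was thus 9.31-fold higher in 2KO than in WT matrix, a ratio that 30 of 11661 measured genes reached, Krtdap included. It was 2.07-fold higher in ORS, and in basal epidermis the arrays lay within 2-fold (1.32-fold). The ORS difference was under 2-fold with arrays set to one median (log2 ratio 0.79) or to the hybridisation controls (0.85), the RNAs spiked into every array.

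The gap between populations narrowed in the same gene. WT basal epidermis exceeded WT matrix 30.8-fold and WT ORS 6.49-fold in Krtdap signal, while 2KO basal epidermis exceeded 2KO matrix 4.36-fold and 2KO ORS 4.14-fold. Matrix and ORS differed 4.74-fold in WT and were alike in signal in 2KO (1.05-fold).

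Sbsn, suprabasin, was read by 3 probe sets. The brightest gave 6766 (WT) and 11924 (2KO) in basal epidermis, 1289 and 4575 in matrix, and 4334 and 3017 in ORS. Its signal was thus higher in 2KO in 2 populations and lower in ORS, and the lowest array was again WT matrix. The matrix difference was 3.55-fold, 3.41-fold and 4.11-fold by the 3 probe sets, all past the 2-fold threshold. In ORS all 3 probe sets were lower in 2KO, by 1.44-fold, 1.46-fold and 1.79-fold, all within 2-fold.

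Probe sets of Sbsn differed more in basal epidermis. There the 2KO array was 1.76-fold higher by the brightest probe set, 2.11-fold higher by the second and 1.21-fold higher by the dimmest, which read 924 in WT and 1115 in 2KO. Whether Sbsn passed 2-fold in basal epidermis therefore depended on the probe set, and its median over probe sets gave a log2 ratio of 1.08.

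Dmkn, which lies between Sbsn and Krtdap, had the same direction in matrix. It read 3981 in WT and 10057 in 2KO matrix, a 2.53-fold difference, and lay within 2-fold in basal epidermis (1.05-fold) and ORS (1.11-fold). Genes beyond this trio were read as well. On the Sbsn side Gapdhs, a sperm glycolytic enzyme, read 84.1 and 1406 in WT and 2KO basal epidermis (16.7-fold higher in 2KO), and was at least 2.94-fold higher in ORS, where its WT signal was below the floor. In matrix Gapdhs read 11.5 in WT, also below the floor, and 166 in 2KO. Its ratio there was at least 1.99955-fold, a lower bound just short of the 2-fold call. Tmem147, the next gene, was within 2-fold in all 3 populations. On the Krtdap side Ffar2, a receptor for short fatty acids, was within 2-fold in matrix and ORS. In basal epidermis Ffar2 read 97.6 in WT and 14.4 in 2KO, below the floor, and was at least 1.17-fold lower, which was not called. Cd22, a B cell gene, was below the floor on all 6 arrays.

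**Figure D1:**
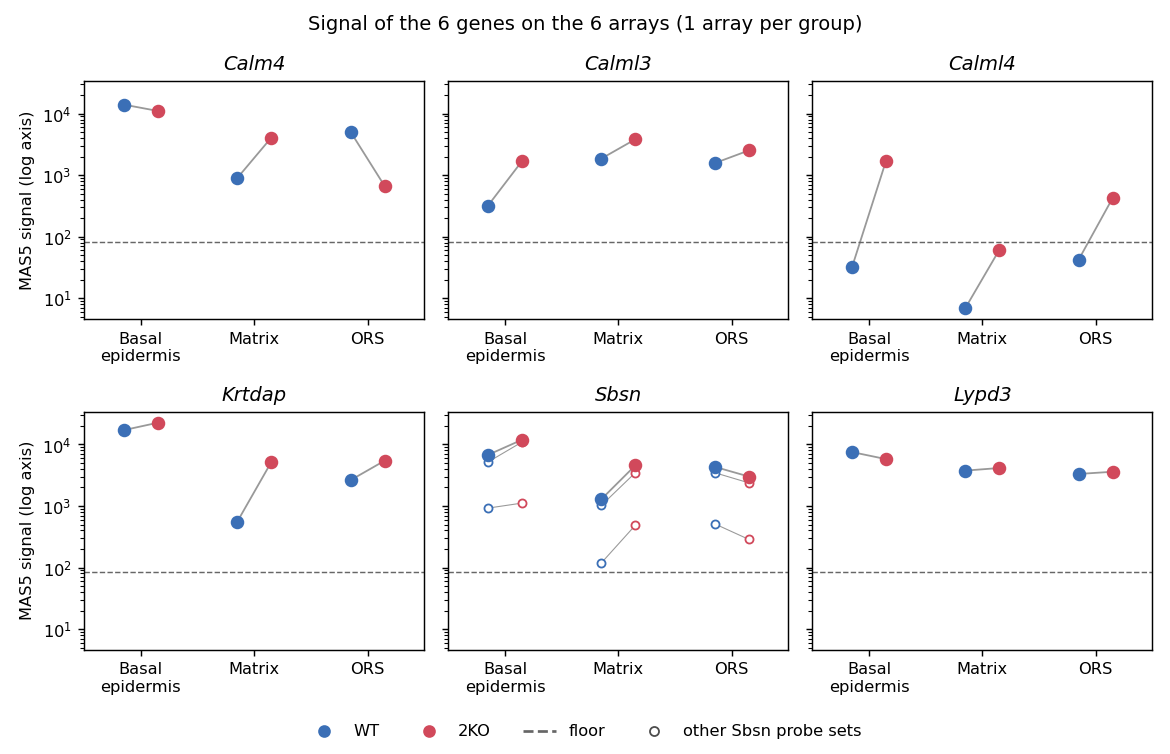
MAS5 signal (log axis) of each gene on the WT (blue) and 2KO (red) array of each sorted population, 1 array per group and so without error bars, with a dashed line at the floor of 83.2. Open circles are the 2 other Sbsn probe sets, and Krtdap in matrix goes from 557 to 5182, Calm4 goes up in matrix and down in ORS, and Lypd3 is nearly level.

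Calm4, a calmodulin relative also known as skin calmodulin-related factor, had signals of 14000 (WT) and 11049 (2KO) in basal epidermis, 899 and 4078 in matrix, and 5026 and 663 in ORS. Basal epidermis was high in both genotypes. Matrix and ORS changed places, since ORS was 5.59-fold above matrix in WT and matrix was 6.15-fold above ORS in 2KO. In matrix Calm4 was 4.54-fold higher in 2KO, a ratio reached by 156 of 11661 genes. In ORS it was 7.58-fold lower in 2KO, a ratio reached by 39 of 11994 genes. Under the 4 other scalings the log2 ratio ran from 1.49 to 2.25 in matrix and from -3.18 to -2.90 in ORS. The other floors and ways to pick probe sets could not move it, with 1 probe set and every signal well above the floor. The 2KO basal epidermis array exceeded the 2KO ORS array 16.7-fold, against 2.79-fold in WT, and only 8 of 11966 measured genes, Calm4 included, had so high a ratio in 2KO.

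Calm4 has a close copy, Calm5, next to it on chromosome 13. Without gaps, 255 of 256 aligned promoter bases of the pair were identical (99.6%). The annotation gave no probe set naming Calm5 alone, and whether the Calm4 probe set also reads Calm5 RNA was not tested.

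Calml3, calmodulin-like 3, which is known as a light chain of the motor protein myosin 10, had signals of 319 (WT) and 1688 (2KO) in basal epidermis, 1858 and 3829 in matrix, and 1568 and 2517 in ORS. The WT basal epidermis array stood alone, below each of the other 5. In basal epidermis Calml3 was 5.29-fold higher in 2KO, and 99 of 11527 genes had so high a ratio. It was 2.06-fold higher in matrix, which was under 2-fold with arrays set to one median (log2 ratio 0.76) or to the hybridisation controls (0.35), and in ORS it was within 2-fold (1.60-fold). WT matrix was 5.83-fold and WT ORS 4.92-fold above WT basal epidermis, opposite to Krtdap, Sbsn, Calm4 and Lypd3. In 2KO these gaps were 2.27-fold and 1.49-fold. Myo10 itself lay between 984 and 1320 on all 6 arrays and within 2-fold in every pair of genotypes.

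Calml3 and Calm4 are neighbours on chromosome 13 and did not share a pattern. The closest measured gene on the other side of Calml3, Asb13, was 2.31-fold lower in 2KO basal epidermis, and beyond it Tasor2 was within 2-fold in all 3 populations. On the side of Calm4, Net1, a regulator of the small GTPase RhoA, was 2.5-fold lower in 2KO ORS and within 2-fold elsewhere, and Ucn3 was below the floor on all 6 arrays.

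Calml4, calmodulin-like 4, is known from the brush border of gut and kidney, where it joins the adhesion complex of neighbouring microvilli. Its signals were 31.8 (WT) and 1702 (2KO) in basal epidermis, 6.92 and 61.3 in matrix, and 42.5 and 428 in ORS. Only the 2KO arrays of basal epidermis and ORS lay above the floor. In basal epidermis the 2KO signal of Calml4 was at least 20.5-fold higher, and 4 of 11527 genes had so high a ratio. In ORS it was at least 5.15-fold higher, a ratio reached by 141 of 11994 genes. In matrix both signals were below the floor. Since each WT signal was below the floor, a measured Calml4 could only be higher in 2KO. With the floor at the 75th percentile, Calml4 was not measured in ORS.

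Genes of the microvillar complex were low. Myo7b, Ush1c, Anks4b and Cdhr2 were below the floor on all 6 arrays, and Cdhr5 reached 179 in WT matrix and was at least 2.15-fold lower in 2KO matrix. The nearest genes on chromosome 9, Cln6, Fem1b and Pias1, lay within 2-fold in all 3 populations, and Skor1 was below the floor on all 6 arrays.

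Lypd3, also called C4.4A, had signals of 7534 (WT) and 5785 (2KO) in basal epidermis, 3762 and 4147 in matrix, and 3318 and 3606 in ORS. Basal epidermis was highest in both genotypes, and matrix and ORS lay close together. The 2 genotypes were within 2-fold throughout, at 1.30-fold lower in 2KO basal epidermis, 1.10-fold higher in matrix and 1.09-fold higher in ORS. The small differences in matrix and ORS were negative with one median for all arrays (log2 ratios -0.14 and -0.13) and with the hybridisation controls (-0.55 and -0.08). Over the 6 arrays Lypd3 spanned 2.27-fold, the smallest range of the 6 genes, against 40.6-fold for Krtdap and 21.1-fold for Calm4.

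Of the proteins reported to bind Lypd3, Agr2 and Agr3 were below the floor on all 6 arrays. Lgals3, galectin 3, and Lamb3, a chain of laminin 332, were 2.46-fold and 3.18-fold higher in 2KO matrix, and with Lama3 they were within 2-fold in basal epidermis and ORS. With the hybridisation controls neither passed 2-fold in matrix. The neighbouring family member Tex101 and the neighbour Cd177 were below the floor on all 6 arrays, Zfp575 was too, and Ethe1 was within 2-fold in each population.

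Counted together, 2 of the 6 genes (Calml3 and Calml4) were at least 2-fold higher and 0 lower in 2KO basal epidermis, where 6.59% and 4.09% of measured genes were higher and lower. In matrix, 4 of 5 measured genes passed as higher (Krtdap, Calm4, Sbsn and Calml3) and 0 as lower, against 9.03% and 1.62% of all. In ORS 2 of 6 (Calml4 and Krtdap) were higher and 1 (Calm4) lower, against 8.16% and 4.75%. The median log2 ratios of the measured genes were 0.61, 1.83 and 0.40 in basal epidermis, matrix and ORS, beside 0.04, 0.03 and 0.01 over all measured genes. The 6 genes were chosen with earlier results of these data known, so a count above the share of all genes is no independent evidence. Calml4 counts as measured only because its 2KO signal was high. Lypd3 was the only gene of the 6 to stay within 2-fold in all 3 populations.

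These backgrounds depended on the scaling. Of all genes called, those higher in 2KO made up 61.7%, 84.8% and 63.2% in basal epidermis, matrix and ORS. With one median for all arrays it was 52.2%, 55.4% and 39.0%, and with the hybridisation controls 55.9%, 14.4% and 44.5%. The median log2 ratio of all measured genes in matrix was then -0.24 and -0.64, and in ORS -0.24 and -0.18. Under the hybridisation controls the matrix log2 ratios of Krtdap, Calm4 and Sbsn were 2.53, 1.49 and 1.14, still past 2-fold.

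**Figure D2:**
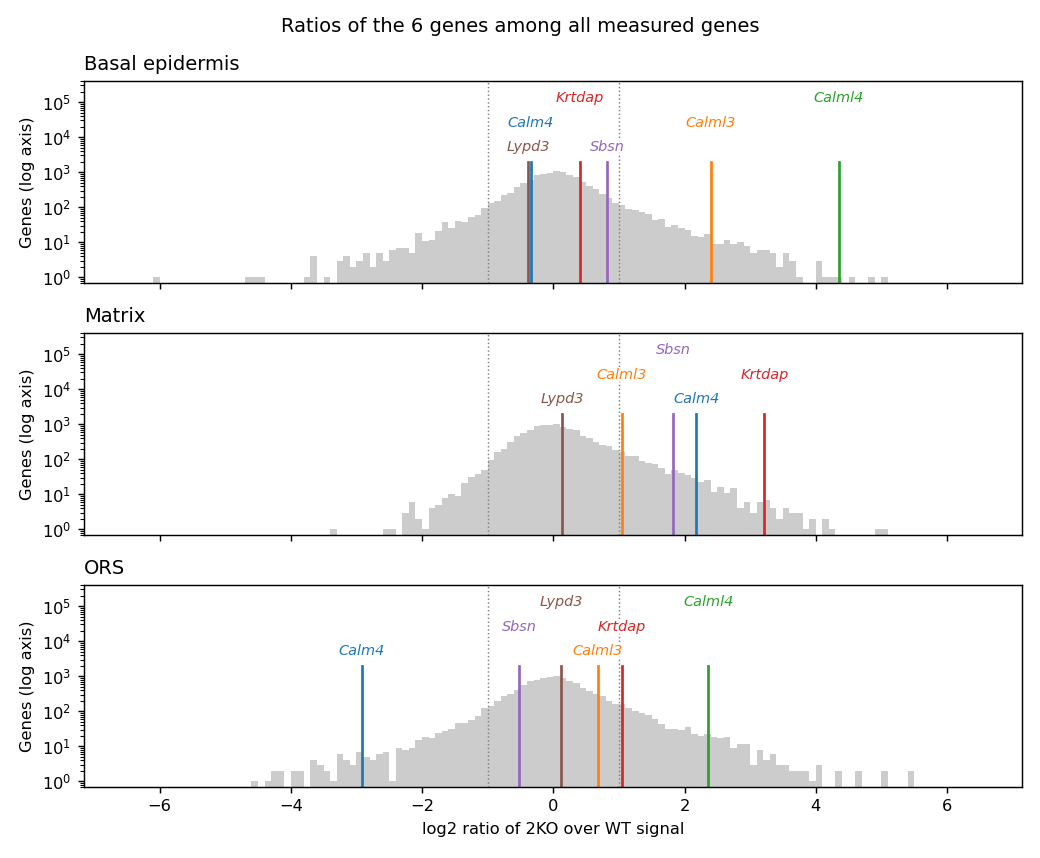
Log2 ratio of 2KO over WT for all measured genes (grey, number of genes per bin on a log axis) in each population, with a coloured line for each of the 6 genes that was measured and dotted lines at 2-fold. Krtdap at 3.22 in matrix, Calml4 at 4.35 in basal epidermis (a lower bound) and Calm4 at -2.92 in ORS lie in the tails, and Lypd3 lies near 0 in each population.

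Between populations of WT mice, basal epidermis was at least 2-fold above matrix in 4 of 5 measured genes (13.8% of all genes) and below it in 1 (11.3%), Calml3. It was above ORS in 3 of 5 (4.15%), Krtdap, Calm4 and Lypd3, and below it in 1 (5.88%), again Calml3. ORS was above matrix in 3 of 5 (13.9%), Calm4, Krtdap and Sbsn, and below it in 0 (8.6%). Lypd3 sat at the threshold against matrix, at 2.00-fold.

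In 2KO mice basal epidermis was above matrix in 4 of 6 genes (7.29% of all) and below it in 1 (6.9%), Calml3. It was above ORS in 4 of 6 (4.32%), Calm4, Calml4, Krtdap and Sbsn, and below it in 0 (6.73%). ORS was above matrix in 1 of 6 (8.61%), Calml4, and below it in 1 (5.2%), Calm4. The 2KO ORS array was thus no longer at least 2-fold above the 2KO matrix array in Krtdap and Sbsn.

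The 18 other matched genes of a suprabasal and early differentiation list had mixed directions in basal epidermis, with 4 of 18 higher and 3 lower in 2KO. Grhl3, a transcription factor of barrier formation, was 4.16-fold higher there, the keratin Krt77 was 67.8-fold lower and the desmosomal cadherin Dsg1a 4.23-fold lower. In matrix 8 of 17 passed as higher and 0 as lower, led by Cst6, the protease inhibitor cystatin M/E (5.14-fold), the Ly6 family gene Ly6g6c (2.87-fold) and Krt77 (2.76-fold). That count was 5 higher and 2 lower with one median for all arrays, and 1 higher and 2 lower with the hybridisation controls. In ORS 0 of 17 were higher and 5 lower, with Krt77 at least 23.3-fold, Cst6 8.90-fold, Them5, a mitochondrial thioesterase, 4.96-fold, Ly6g6c 4.44-fold and Ly6d 4.35-fold lower. The medians over the 3 populations in that order were -0.06, 0.96 and -0.77, and kept their signs under the 4 other scalings.

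Calm4 was 1 of 56 genes, out of 11199 measured in both populations (0.5%), that were at least 2-fold higher in 2KO matrix and at least 2-fold lower in 2KO ORS. Krt77, Cst6, Ly6d and Ly6g6c from the suprabasal list were among the 56. With the hybridisation controls 1 of 17 genes of that list was higher in matrix, so that at most 1 of them kept both calls. Calm4 kept both calls under that scaling (log2 ratios 1.49 and -3.12). Ly6d read 9936 in WT and 2283 in 2KO ORS, and 1213 and 3290 in matrix. The reverse pair of directions was found for 6 genes.

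**Figure D3:**
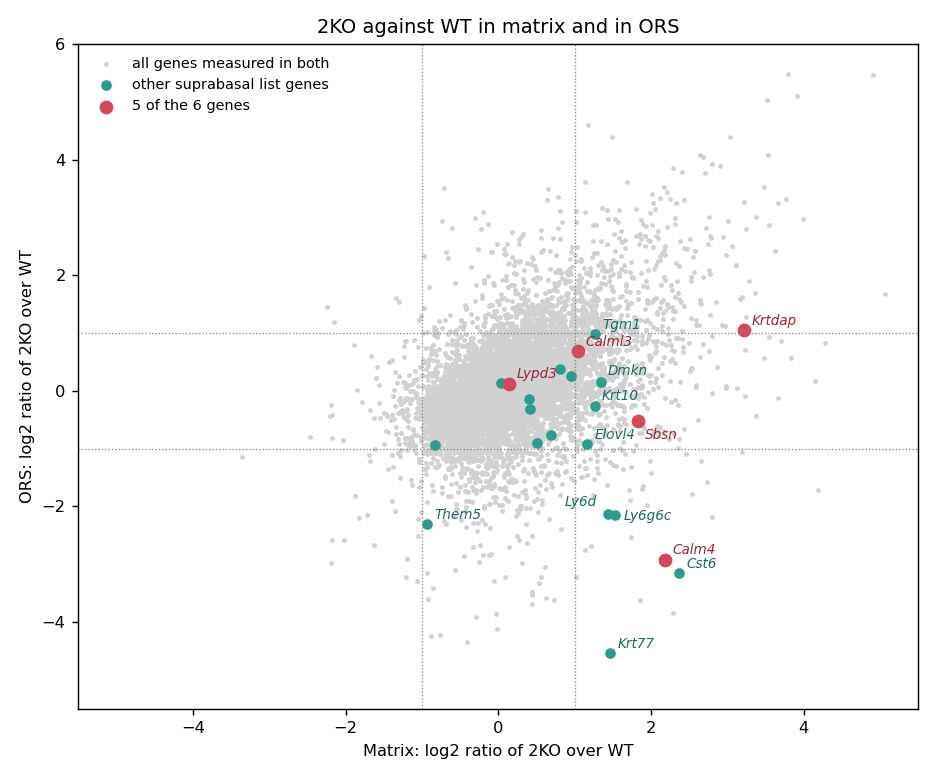
Log2 ratio of 2KO over WT in matrix (horizontal) against ORS (vertical) for all genes measured in both (grey), the other suprabasal list genes (green) and the 5 of the 6 genes measured in both (red), with dotted lines at 2-fold. Calm4 lies at 2.18 and -2.92 at the lower right beside Cst6, Ly6d, Ly6g6c and Krt77, and Krtdap lies at 3.22 and 1.05 at the right.

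Further lists place the genes among their relatives. Of 22 other matched genes of the Ly6/uPAR family, 1 of 13 measured was higher in basal epidermis, 3 of 11 were in matrix and 4 of 11 in ORS, while 2 were lower in ORS and 0 in the other populations. Plaur, the urokinase receptor, was higher in all 3, by 2.79-fold, 2.77-fold and 4.58-fold, and Lypd6 was 7.06-fold higher in ORS. Ly6d and Ly6g6c made up the rest of the matrix count, and with the hybridisation controls 0 were higher and 3 lower there. The family medians were -0.06, 0.47 and 0.05, of which the matrix value was -0.22 after scaling to the hybridisation controls, and the ORS value was negative under all 4 other scalings.

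Among calcium-binding S100 genes, 2 of 11 measured passed as higher for basal epidermis, 3 of 11 for matrix and 1 of 12 for ORS, with 0 lower. With the hybridisation controls 2 of 11 were lower in matrix. The alarmins S100a8 and S100a9 made up the basal epidermis count, at 2.78-fold and 2.75-fold. In matrix S100a8 was 11.1-fold, S100a9 at least 33.4-fold and S100a4 4.06-fold higher, and in ORS S100a9 was at least 3.19-fold higher. The medians were 0.09, 0.43 and -0.14, the first turning to -0.02 with one median for all arrays and the second to -0.27 with the hybridisation controls.

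Transcription factors and receptors that regulate epidermal differentiation mostly lay within 2-fold. In basal epidermis 2 of 20 were higher, Grhl3 and Prdm1 (3.64-fold), and 2 lower, Gata3 (3.87-fold) and Ovol2 (2.15-fold). In matrix 0 were higher and 1 lower, Hes1 (2.44-fold). In ORS 2 were higher, Prdm1 (2.33-fold) and Notch1 (2.01-fold), and 3 lower, Zfp750 (3.97-fold), Cebpa (2.80-fold) and Gata3 (2.46-fold). The medians of -0.28, 0.22 and 0.18 were -0.39, -0.06 and -0.08 with one median for all arrays and -0.34, -0.47 and -0.03 with the hybridisation controls.

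Late cornification genes were called in both directions. In basal epidermis 8 of 17 measured were higher and 3 lower, in matrix 4 of 17 and 3, and in ORS 3 of 17 and 4. Of the small proline-rich envelope genes, Sprr1b was 6.25-fold higher in matrix, and Sprr2h was 6.46-fold higher in basal epidermis, as was Lce3c by at least 6.28-fold. Klk7, a protease of the cornified layer, was 6.38-fold lower in basal epidermis, 3.60-fold higher in matrix and 12.3-fold lower in ORS. Sprr1a was 3.87-fold higher in matrix and 3.95-fold lower in ORS, where Klk5 was 3.90-fold lower. The medians were 0.63, 0.50 and -0.13, and each changed sign under some setting. That of matrix was -0.20 with the hybridisation controls, those of basal epidermis and matrix were -0.02 and -0.07 with the floor at the 25th percentile, and that of ORS was 0.48 with the median over probe sets. The count higher in ORS was 1 with one median for all arrays and with the hybridisation controls.

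Markers of other cells moved on the same arrays. In matrix, the summed signal of 6 infundibulum and upper follicle markers went from 9676 in WT to 46834 in 2KO, with 5 of 6 at least 2-fold higher, beside the higher Krtdap, Calm4, Sbsn and Calml3. Krt79 and Defb6 were 18.1-fold and 4.86-fold higher there. The 9 suprabasal markers summed to 9103 and 14430 with 2 higher and 1 lower, and 7 basal layer markers to 27350 and 48825 with 3 higher and 0 lower. The 7 matrix markers summed to 26039 and 15463, with 1 higher and 3 lower. Companion layer and wound keratins were higher in 3 of 4 cases (sums 9025 and 21677). Fibroblast markers were higher in 5 of 7 cases (sums 19960 and 35961), immune markers in 4 of 8 (1161 and 5266) and skeletal muscle markers in 4 of 6 (545 and 2875). Merkel cell markers were higher in 4 of 6 cases (248.9 and 1745), and ORS and follicle stem cell markers in 3 of 7 (6917 and 15826), with 0 lower in either list. Marker sums and counts in all 3 populations are on the deposited scaling and were not recomputed under the others. Scaling to the hybridisation controls lowered matrix ratios, that of Calm4 from 2.18 to 1.49 in log2 units. The part of these cells in the matrix differences was not tested.

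In ORS, the infundibulum markers summed to 77775 in WT and 41324 in 2KO, with 3 of 6 lower and 0 higher, beside the lower Calm4. Defb6 was 14.4-fold and Krt79 3.28-fold lower. Of 7 sebocyte markers 6 were lower and 0 higher (sums 51471 and 16233), and Mc5r, a melanocortin receptor of sebocytes, was below the floor in 2KO. Suprabasal markers summed to 7379 and 6750, with 1 higher and 1 lower. Inner root sheath markers summed to 4377 and 1231 (5 of 7 lower), and hair shaft markers to 1730 and 506 (4 of 6 matched lower). Other lists went the opposite way on the same arrays, beside the higher Calml4 and Krtdap. Merkel cell markers summed to 851 and 4488, with 4 of 6 higher and 0 lower, and companion layer and wound keratins to 13750 and 18303, with 3 of 4 higher and 0 lower. The part of these cells in the ORS differences was not tested.

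In basal epidermis the suprabasal markers summed to 51294 in WT and 58135 in 2KO, with 4 of 9 higher and 2 lower, and the basal layer markers to 131491 and 113346, with 0 of 7 called. Inner root sheath markers summed to 4006 and 928 (6 of 7 lower), hair shaft markers to 2919 and 383 (3 of 6 lower). Merkel cell markers summed to 383 and 3299, with 4 of 6 higher and Atoh1, the defining factor of that lineage, below the floor on both arrays. Infundibulum markers summed to 64928 and 45022, with 0 of 6 higher and 1 lower. Companion layer and wound keratins summed to 31762 and 58333, with 1 of 4 higher and 0 lower. Of 7 ORS and follicle stem cell markers 3 were higher and 0 lower, though their sum fell (33346.2 and 23366.5). Immune markers summed to 8441 and 6588, with 0 of 8 higher and 3 lower. The part of such cells in the higher Calml3 and Calml4 was not tested.

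**Figure D4:**
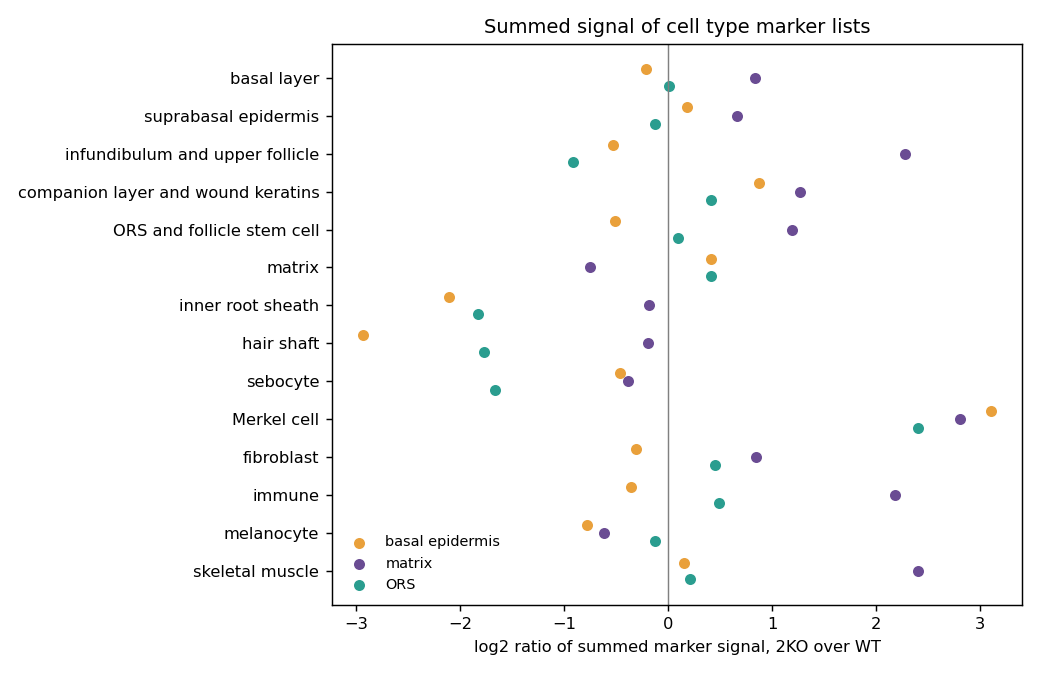
Log2 ratio of 2KO over WT of the summed signal of each cell type marker list (vertical axis) in basal epidermis (orange), matrix (purple) and ORS (green), 1 pair of arrays per point. The infundibulum list lies to the right of 0 in matrix, where its sum went from 9676 to 46834, and to the left in ORS, where it went from 77775 to 41324.

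The patterns over the 6 arrays differed among the 6 genes. Likeness was measured as the root mean square difference of log2 signals over the 6 arrays, each gene centred on its own mean and floored. Among the 6 genes the closest pair was Sbsn and Lypd3 (0.79), followed by Krtdap and Sbsn (0.92) and Calm4 and Sbsn (0.98). The measure does not adjust for range, and Lypd3 spanned 2.27-fold over the arrays where Sbsn spanned 9.25-fold. Calm4 and Calml3, the neighbours on chromosome 13, were the least alike (2.47).

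Over the whole array, the gene nearest to Lypd3 was Sfn (0.15), the 14-3-3 protein of stratified epithelia, followed by Nectin2 and Adcy3 (both 0.16). Nearest to Sbsn were Teddm3 (0.19), the kallikrein protease Klk10 (0.29) and the zinc transporter Slc39a2 (0.33). Nearest to Calm4 were Tmem45a (0.60), Ly6d (0.63) and Edn1, which encodes endothelin 1 (0.80). Krtdap was nearest to Ptges, a prostaglandin E synthase (0.43), Adam8 (0.49) and Tent5a (0.50). Calml3 was nearest to Klhl22 (0.25), Pag1 (0.34) and Acot7 (0.35). Calml4 was nearest to Ms4a10, Wfdc2 (both 0.49) and Slc14a1, a urea transporter (0.52), each compared over 6 arrays on which Calml4 passed the floor on 2. A gene with a small range, such as Lypd3, has more close neighbours by this measure.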

How the data were processed

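The deposited table holds 1 intensity (MAS5 signal, linear scale) per probe set for each of 6 arrays, 45101 probe sets in all, 64 of them controls. MAS5 was used, per the submitters' processing notes, and images had been background-subtracted, per the series text. Its version and detection calls are not given in the sources used here. Each array's 2% trimmed mean was 500.0, so a shift of most genes one way could not be seen. Genes were named from the platform annotation, without the probe sets that carry several. A gene was represented by its brightest probe set (mean of log2 signals). No sample was left out. Log2 ratios on signals floored at 83.2 were called at 2-fold, the fold the series text uses, with Python 3.11.15 and pandas 2.3.3. The calling was tested on simulated data. In total 9 alternatives (4 scalings, 3 floors, 2 ways to pick probe sets) were run. The number of arrays, 1 per group, limits the precision. The genes and the lists were chosen with earlier results of these data known. The genes named are the 6 genes, up to 3 called genes of each list and population with the largest ratios (all of them where 5 or fewer were called), the nearest 2 neighbours on each side that have a probe set (some below the floor), the 3 genes of most similar pattern, cell markers, and Ezh1 and Ezh2. Partner genes of Calml3, Calml4 and Lypd3 were named in full, after their values were seen. Promoters are those of RefSeq, GRCm38.p6.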

Additional observations from a re-analysis of the deposited data

Results flagged for a closer look

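The 7 genes below differed at least 2-fold in opposite directions in 2 populations, with 1 array per group, and the differences between populations were not tested. These calls are on the deposited scaling. With the hybridisation controls 1 of 17 suprabasal list genes and 0 of 13 Ly6/uPAR genes were at least 2-fold higher in matrix. Ly6d and Ly6g6c, both of the Ly6/uPAR list, therefore lost the opposite call under that scaling. Of Cst6 and Krt77, both of the suprabasal list, at most 1 kept it. For Calm4 the ratio of 2KO to WT, in log2 units, was 5.10 higher in matrix than in ORS (2.18 against -2.92). The same gap between matrix and ORS was 5.51 for Cst6, 5.47 for Klk7, 3.93 for Sprr1a, 3.67 for Ly6g6c and 3.56 for Ly6d. For Krt77 the gap was 7.55 between matrix and basal epidermis (1.46 against -6.08).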

How the results depend on the processing

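Of 152 log2 ratios of single genes recomputed under the 9 alternatives, 143 kept their sign and their side of the 2-fold threshold, 4 fell below it and 1 (Sbsn in basal epidermis) passed it. The other 4, Lypd3 in matrix and ORS with a common median and with the hybridisation controls, stayed within 2-fold and became negative. No called ratio changed sign. Many of the 152 could not differ from the main value. The 3 floors cannot move genes far above them, and the 2 ways to pick probe sets cannot move genes with 1 probe set. Calm4, Krtdap and Lypd3 were unchanged under all of these, so that only the 4 scalings could alter their ratios. The count of the 6 genes higher in 2KO ORS was 1 in place of 2 with a common median, with the hybridisation controls and with the floor at the 75th percentile. The count higher in 2KO matrix was 3 in place of 4 with a common median and with the hybridisation controls. It was 5 with the floor at the 25th percentile and with no floor. In basal epidermis the count higher in 2KO was 3 in place of 2 with the median over probe sets. Of the 6 genes, 0 in place of 1 were lower in 2KO basal epidermis than in 2KO matrix with a common median. With the 75th percentile floor 0 in place of 1 were higher in 2KO ORS than in 2KO matrix. WT basal epidermis was above WT matrix in 3 in place of 4 with the hybridisation controls and with quantile normalization. With no floor that count was 5. WT ORS was above WT matrix in 4 in place of 3 with the 25th percentile floor and with no floor. With a common median 2KO basal epidermis was above 2KO ORS in 5 in place of 4. Counts of all genes moved more. With a common median 574 were lower in matrix, and 640 higher and 1002 lower in ORS. With the hybridisation controls 432 were higher and 2559 lower in matrix, and 899 lower in ORS. In basal epidermis, matrix and ORS, a floor at the 25th percentile gave 1637, 2149 and 1834 higher and 828, 436 and 935 lower, one at the 75th gave 235, 311 and 337 higher and 235, 79 and 282 lower, and no floor gave 2796, 3320 and 2878 higher and 1727, 1276 and 1722 lower. Fewer genes are measured with a higher floor; the cause of the other shifts was not tested. No paired analysis was possible because each group has 1 array and the labels give no replicate numbers. Ratios near the floor, as for Calml4, are limited by its height.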
